A study of Homo sapiens with 21 samples.

Results

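The genes described here encode the proteins that hold epithelial cells together at tight junctions, adherens junctions and desmosomes, and the polarity proteins that give such cells an apical and a basal side. They were chosen by symbol. The set has 33 of the 16553 genes of the deposited count table: 8 membrane proteins and 4 scaffolds of the tight junction, 4 polarity proteins, 7 adherens junction proteins, 9 desmosome proteins and EPCAM. Each of the 33 symbols was found in 1 row, and all 33 passed the filter on low counts that left 15969 genes to test.

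Tight junctions seal the space between neighbouring epithelial cells, with claudins and occludin as their membrane strands and ZO proteins as the scaffold beneath. Adherens junctions, built on cadherins, nectins and catenins, tie the actin cytoskeletons of neighbours to each other, and desmosomes do the same for keratin filaments through plakoglobin, plakophilins and desmoplakin. The PAR and Crumbs complexes place the tight junction at the border between the apical and the lateral membrane. In mammary epithelium, active HER2 is known to disturb this order through the PAR6 and atypical protein kinase C complex.

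RNA was sequenced from AU565, a human breast carcinoma line with an amplified ERBB2 gene, kept in RPMI with 10% serum and labelled as epithelium of wild-type genotype. Trastuzumab, the antibody used throughout, binds HER2, the product of ERBB2. The 21 libraries form 7 groups of 3. Monolayers were untreated, exposed acutely to 20 µg/ml trastuzumab for 24 h, or primed, which here means the same exposure and 96 h more before RNA was taken. The other 4 groups grew as 3D aggregates, in liquid overlay cultures to which 5% matrigel was added. Untreated aggregates were grown for 96 h. Primed aggregates were made from cells exposed to 20 µg/ml for 24 h as a monolayer and then grown for 96 h. Treated aggregates met 50 µg/ml for 24 h after 96 h of growth, and primed and treated aggregates had both exposures. Treated aggregates were thus also 24 h older than untreated and primed ones, and primed monolayers were in culture for 96 h longer than acutely exposed ones, so that exposure and time cannot be told apart in those comparisons. The labels list no such wait of 96 h for untreated monolayers, so the same holds for primed against untreated monolayers. The labels do not say that the 3 libraries of a group came from separate cultures, so p-values measure the spread between these libraries, which may be technical.

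Total counts were 15005070 to 26921113 per library. The label epithelium was matched by markers of luminal cells, all 9 of which were detected in every group, with a summed level between 14119 and 22642 CPM (counts-per-million of each library's normalised size) in every library. The libraries fell into 2 sets by transcripts of other tissues. In 12 libraries, those of monolayers untreated or exposed acutely and of aggregates untreated or primed, the melanocyte enzyme TYRP1 stood at 5.70 to 33.1 CPM, against at most 0.256 in the other 9, which in turn held the kidney protein UMOD at 0.825 to 22.8, against at most 0.0588. The cardiac myosin MYH7 stood at 20.6 to 87.4 CPM in untreated monolayer replicates 1 and 2, acute monolayer replicates 2 and 3 and untreated aggregate replicates 1 and 2, and at no more than 0.110 in the other 15. Comparisons of acutely exposed with untreated monolayers, of primed with untreated aggregates and of untreated aggregates with untreated monolayers lie within the 12, and comparisons among the other 3 groups lie within the 9. Every other comparison crosses the sets, so that set and exposure cannot be told apart in it.

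The 33 genes took a larger share of the counts in exposed than in untreated cells. Their summed share was 0.620% to 0.640% in untreated monolayers, 0.708% to 0.710% in acutely exposed and 0.791% to 0.819% in primed monolayers. It was 0.656% to 0.665% in untreated aggregates, 0.707% to 0.729% in primed, 0.742% to 0.768% in treated ones and 0.765% to 0.786% in those primed and treated. No exposed group overlapped the untreated group of its growth form, and the most abundant genes, CTNNA1, JUP and CLDN4, weigh most in these sums. In bulk RNA, fewer cells that express a gene and less of its RNA per cell cannot be told apart.

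Genes were called where the Benjamini-Hochberg adjusted p of edgeR's quasi-likelihood test over all 15969 genes was under 0.05, and each change is a log2 fold change followed by its standard error (SE). In untreated aggregates against untreated monolayers 15 of the 33 genes rose and 9 fell, beside 32.9% of all tested genes higher and 31.1% lower. In primed and treated aggregates against primed monolayers 10 rose and 14 fell, beside 31.9% and 32.1%. Members were called in both directions there, as were all genes. Acute exposure of monolayers went with 13 genes higher and 0 lower, where 11.3% of all genes were higher and 8.91% lower. The median change of the 33 was 0.13 there, against -0.017 over all tested genes. In primed against untreated aggregates 15 rose and 2 fell, beside 11.5% and 9.66%, with a median change of 0.15.

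In primed against untreated monolayers 22 of 33 genes rose and 3 fell, beside 33.7% and 31.6% of all genes, with a median of 0.37. In treated against untreated aggregates 18 rose and 3 fell (18.8% and 17.9% of all genes), and in primed and treated against untreated aggregates 16 rose and 3 fell (17.6% and 17.9%). These 2 comparisons and the one of primed aggregates share their untreated libraries, and the acute and primed monolayers share theirs. A second dose in primed aggregates went with 10 genes higher and 8 lower, beside 14.9% and 14.8%. Priming among treated aggregates moved 3 genes, 2 up and 1 down, where 3.18% of all genes rose and 4.8% fell. The difference between the priming responses of treated and of untreated aggregates was above 0 for 1 gene and below 0 for 9, beside 5.05% and 7.42%. The difference between the response of aggregates to priming and of monolayers to acute exposure was above 0 for 2 genes and below 0 for 6, beside 6.85% and 8.25%. Single libraries decide the small counts. Without untreated aggregate replicate 1 or primed aggregate replicate 2, 1 gene fell with priming of aggregates. The 2 genes higher with priming among treated aggregates became 0 or 1 without any of 5 libraries. The 6 genes below 0 in the last difference became 3 without untreated monolayer replicate 2, and the 2 above 0 became 1 to 5 without any of 8 libraries.

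Markers of other cell types moved in the same comparisons. Between untreated monolayers and untreated aggregates 5 of 6 melanocyte markers tested were lower, from a sum of 49.5 to 109.5 CPM to one of 16.7 to 23.3, and 4 of 7 basal and squamous markers were higher. In primed against untreated monolayers 3 of 4 endothelial markers were higher and 1 lower, at sums of 82.3 to 94.6 and 16.3 to 19.0 CPM, mainly through CDH5, a cadherin of endothelial junctions, at means of 58.1 and 7.21. Their part in the counts of the 33 genes was not tested.

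**Figure D1:**
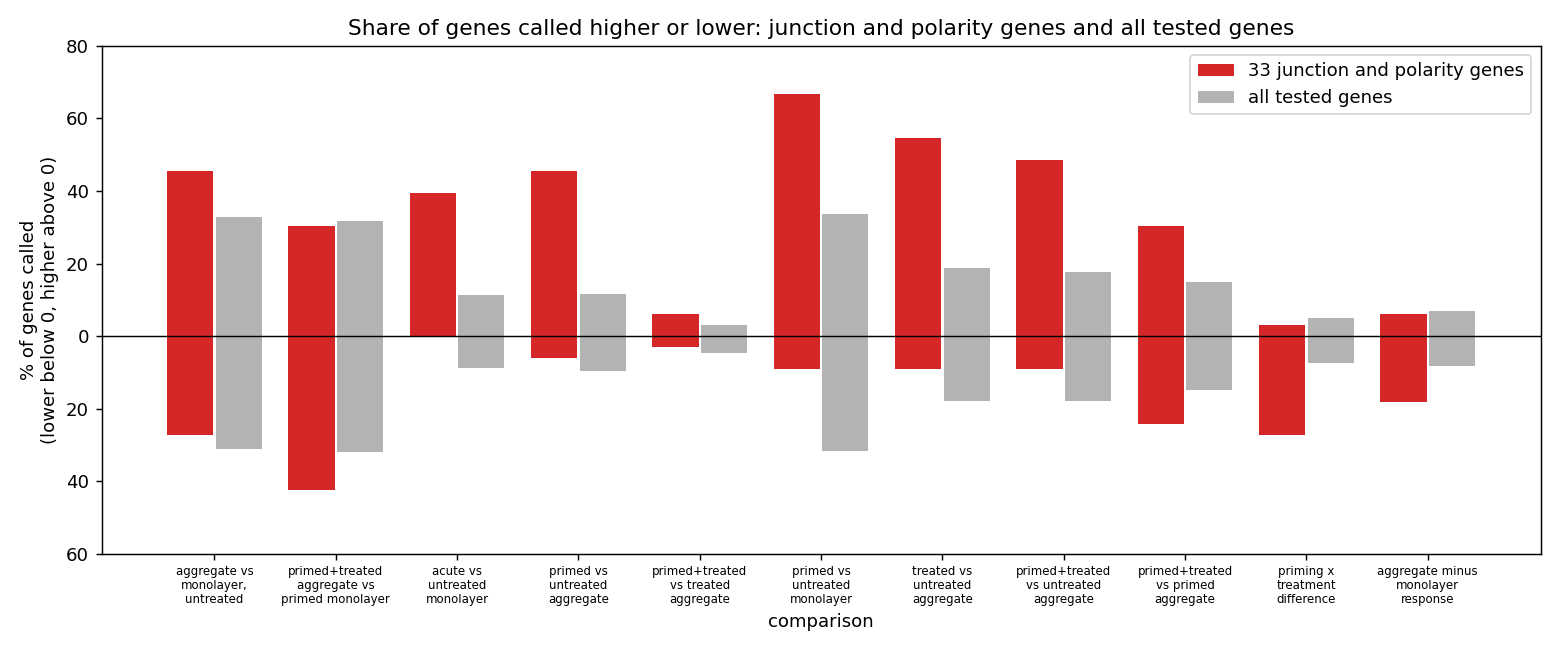
Share of genes called higher (above 0) or lower (below 0), in percent, in 9 pairwise comparisons and 2 differences between responses, for the 33 junction and polarity genes (red) and all 15969 tested genes (grey). In the 5 comparisons of exposed with unexposed cells of 1 growth form the red bars reach higher above 0 than the grey ones and less far below 0, as in primed monolayers, where 22 of 33 genes rose.

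The 6 libraries with MYH7 bear on part of these counts. Without them 1 library each of untreated monolayers, acutely exposed monolayers and untreated aggregates is left, assumed to vary like the other groups, and the filter on low counts passes 16473 genes. In that fit 14 of the 33 genes rose and 3 fell between untreated aggregates and monolayers, beside 22.2% and 19.8% of all genes. Acute exposure then had 4 genes higher and 0 lower, beside 3.19% and 1.23%, and primed against untreated aggregates 5 higher and 1 lower, beside 6.49% and 6.72%. Calls over all genes thus became fewer too. The 9 negative differences between priming responses became 1 and the positive one 0, beside 5.68% and 4.77% of all genes, and no difference between aggregates and monolayers in response was called for the 33, where it was above 0 for 0.437% and below 0 for 1.19% of all. Heart muscle expresses some desmosome genes too. The 9 desmosome genes had 0.836 to 1.21 times the level of the other library of the same group in these libraries, and PKP2 and DSP, the ones best known from the heart, 0.902 to 0.968 and 0.893 to 1.03 times.

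**Figure D2:**
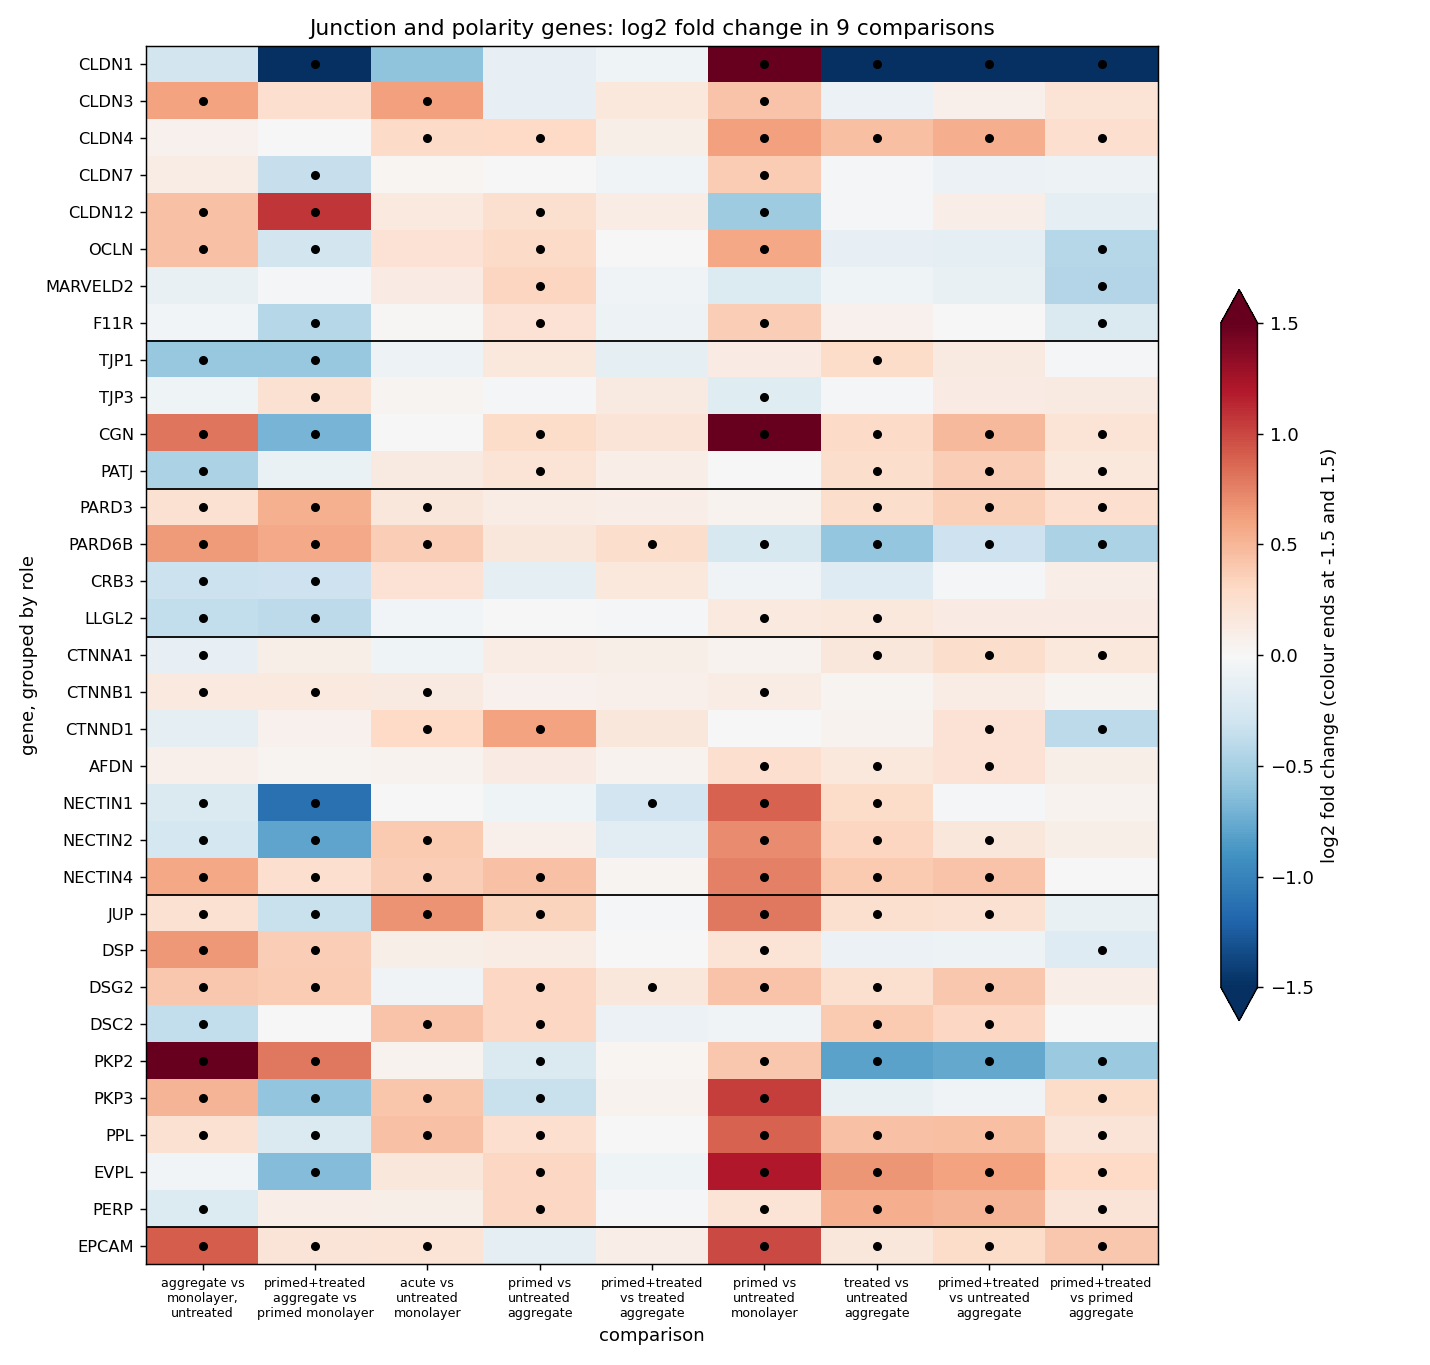
Log2 fold change of each of the 33 genes (rows, grouped by role, separated by lines) in 9 comparisons (columns), with a dot where the change was called. Colours end at -1.5 and 1.5, so CLDN1, at -5.31 in primed and treated aggregates against primed monolayers, lies beyond the scale.

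The highest group mean was a median of 1.66 times the lowest over the 33 genes, against 1.90 over the 15835 tested genes with no group at 0. For 10 genes it was under 1.5 times, least for the scaffold TJP3 at 1.17, and for 10 it was over 2 times, most for CLDN1 at 39.4, CGN at 3.97 and PKP2 at 3.90. Primed monolayers held the highest mean of 13 of the 33 genes, where they held that of 26.2% of all genes. Untreated monolayers held the highest mean of 0 and the lowest of 14, beside 19.7% and 20.3% of all genes. Per kilobase of exon the means ran from 280 to 336 CPM for CTNNA1 and from 174 to 300 for JUP down to 2.35 to 3.18 for MARVELD2 and 0.204 to 8.01 for CLDN1.

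Acute exposure of monolayers and priming of aggregates share no library, and 6 genes rose in both: CLDN4, CTNND1, DSC2, JUP, NECTIN4 and PPL. They are 46.2% of the 13 genes that rose in the first and 40.0% of the 15 in the second, where over all tested genes the shares were 34.0% and 33.3%. Under at least 1 of the alternatives given below, CLDN4, CTNND1 and NECTIN4 lost the first call, and DSC2 and PPL lost the second. PKP3 rose in the first and fell in the second. To show what lies upstream of these genes, the 250 bases before the transcription start were read from the RefSeq promoter table (GRCh38.p14), which had an entry for 22 of the 33 genes. Of the 6, CLDN4, DSC2, JUP and NECTIN4 had one. They are printed 5′ to 3′ on the strand of the gene, with CLDN1 and CGN, the most variable genes of the set, for comparison, and capitals mark the motifs found. The windows are chr7:73830746-73830995 on the plus strand for CLDN4, chr18:31102422-31102671 on the minus strand for DSC2, chr17:41786712-41786961 on the minus strand for JUP, chr1:161089559-161089808 on the minus strand for NECTIN4, chr3:190322447-190322696 on the minus strand for CLDN1 and chr1:151511137-151511386 on the plus strand for CGN.
CLDN4: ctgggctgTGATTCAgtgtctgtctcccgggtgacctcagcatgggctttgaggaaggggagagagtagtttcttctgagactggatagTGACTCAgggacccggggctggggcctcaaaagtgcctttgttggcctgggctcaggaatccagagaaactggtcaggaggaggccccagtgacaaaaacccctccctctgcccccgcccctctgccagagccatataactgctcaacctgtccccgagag
DSC2: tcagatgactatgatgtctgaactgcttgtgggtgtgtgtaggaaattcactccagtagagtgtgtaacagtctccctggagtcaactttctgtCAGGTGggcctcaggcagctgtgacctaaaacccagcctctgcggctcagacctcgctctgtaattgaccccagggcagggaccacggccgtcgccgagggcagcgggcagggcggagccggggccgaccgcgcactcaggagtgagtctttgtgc
JUP: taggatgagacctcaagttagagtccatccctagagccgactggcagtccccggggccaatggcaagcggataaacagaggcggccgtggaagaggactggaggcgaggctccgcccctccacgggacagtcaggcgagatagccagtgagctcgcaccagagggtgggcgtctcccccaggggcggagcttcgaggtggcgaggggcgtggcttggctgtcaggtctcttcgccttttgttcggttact
NECTIN4: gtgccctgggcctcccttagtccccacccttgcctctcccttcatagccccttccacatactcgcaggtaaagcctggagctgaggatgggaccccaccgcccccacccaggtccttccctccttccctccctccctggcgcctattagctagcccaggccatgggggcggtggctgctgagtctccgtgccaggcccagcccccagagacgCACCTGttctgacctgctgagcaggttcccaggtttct
CLDN1: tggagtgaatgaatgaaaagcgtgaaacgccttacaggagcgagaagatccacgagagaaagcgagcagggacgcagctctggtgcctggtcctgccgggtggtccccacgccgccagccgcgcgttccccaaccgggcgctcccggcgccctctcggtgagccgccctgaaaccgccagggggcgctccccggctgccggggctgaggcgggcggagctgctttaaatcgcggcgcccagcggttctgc
CGN: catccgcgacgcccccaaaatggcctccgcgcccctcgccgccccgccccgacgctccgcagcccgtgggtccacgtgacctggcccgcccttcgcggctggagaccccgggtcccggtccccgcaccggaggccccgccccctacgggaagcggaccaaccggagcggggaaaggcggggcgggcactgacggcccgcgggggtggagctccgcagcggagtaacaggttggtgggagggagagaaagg
Both strands were searched for AACCGGTT (Grainyhead-like factors), CACCTG (the E-box that SNAI and ZEB repressors bind), TGANTCA (AP-1), CATTCC (TEAD) and CCGGAAGT (ETS). The AP-1 letters stood in the CLDN4 window at -242 and -161 from the start and in that of PERP at -101. That is 2 of 22 windows, or 9.09%, against 6.57% of all 35116 windows of the table. CACCTG was in 9 of 22 windows (40.9%, against 17.5% of all), among them NECTIN4 at -38 and DSC2 at -156, where it reads CAGGTG on the other strand. For TJP1, also among the 9, the bases after the window matched no annotated transcript of the gene, so its start is uncertain. No match overlapped another. The median GC content was 68.2% in the 22 windows and 58.0% in all. The ETS letters were in 1 window, that of CRB3 (3.42% of all), and AACCGGTT and CATTCC in 0 of 22, against 0.117% and 11.9% of all. No motif was in all 4 windows of genes that rose in both comparisons, and JUP, CLDN1 and CGN held 0 of the 5. A match describes letters only, and 11 genes, PPL and CTNND1 among them, were not searched.

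**Figure D3:**
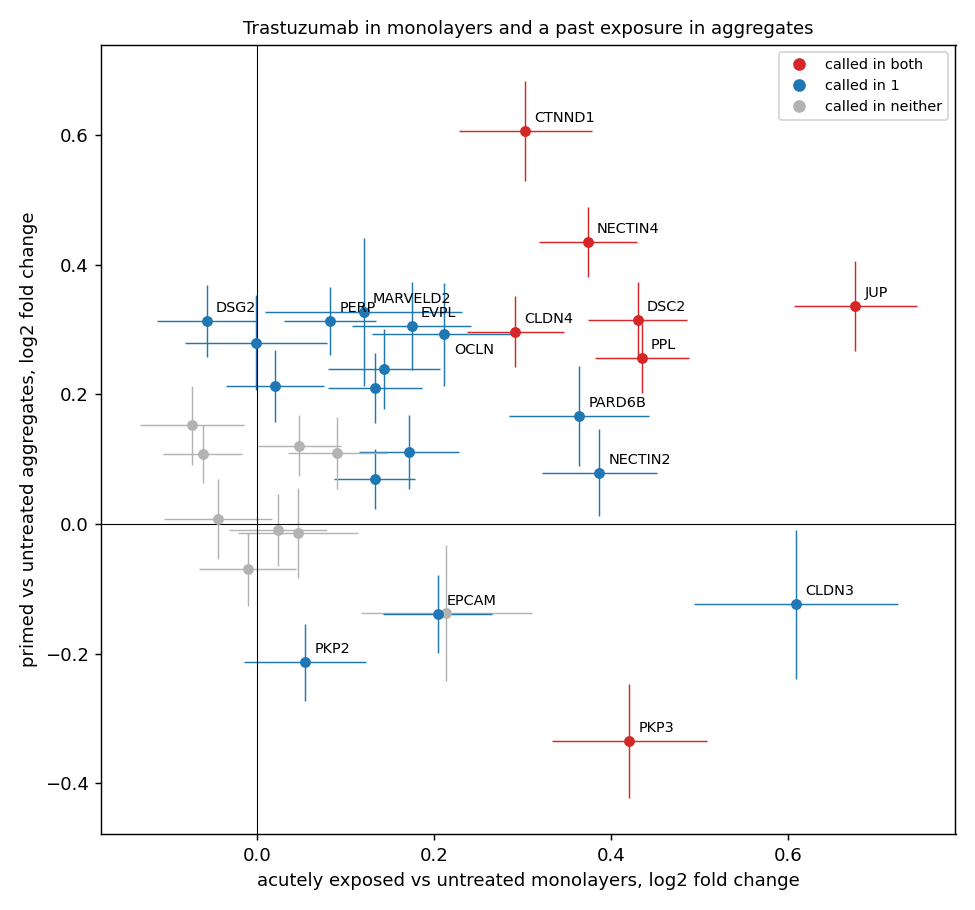
Log2 fold change in acutely exposed against untreated monolayers (x) and in primed against untreated aggregates (y) for 32 of the 33 genes, with bars of 1 SE. CLDN1, called in neither, lies outside the axes; the 6 genes called higher in both stand at the upper right and PKP3 at the lower right.

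Among the membrane proteins of the tight junction, CLDN1, a barrier-forming claudin best known from skin, had the widest range of all 33 genes. It stood at 26.1, 28.6 and 28.96 CPM in the 3 primed monolayers and at 4.04, 4.72 and 2.77 in untreated ones. No library of these groups overlapped, and the log2 fold change was 2.85 (SE 0.22, adjusted p = 1.19e-11). Acutely exposed monolayers, at 2.97, 2.61 and 2.14, did not pass (-0.60, adjusted p = 0.104). They passed without untreated monolayer replicate 3 (-0.79, adjusted p = 0.0294). In aggregates CLDN1 was lower with treatment. It was 2.35, 4.24 and 2.85 CPM without antibody, 0.989, 0.917 and 0.299 after treatment and 0.718, 0.966 and 0.442 after both exposures, changes of -2.11 (SE 0.33, adjusted p = 1.49e-05) and -2.18 (SE 0.33, adjusted p = 1.03e-05) against the same untreated libraries. The lowest library had 7 reads of CLDN1, so these levels are imprecise, but no treated library reached an untreated one. These comparisons cross the 2 sets of libraries, as does that of primed with untreated monolayers, so set and exposure cannot be told apart. Primed aggregates, at 2.43, 2.31 and 3.91, overlapped the untreated ones, and primed and treated aggregates were below primed ones (-2.05, SE 0.33, adjusted p = 3.42e-05). Within the set of 9 libraries, primed and treated aggregates were below primed monolayers by -5.31 (SE 0.27, adjusted p = 2.85e-15). The epidermal genes moved with CLDN1 in primed monolayers: the 7 detected of 11 basal and squamous markers summed to 137 to 158 CPM there and to 7.82 to 43.4 in the other 6 groups, mainly TGM1, KRT16 and IVL, while KRT6A and TP63 were not analysed here. Their part in the change was not tested.

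CLDN4 and CLDN3 are claudins that also serve as receptors of a clostridial enterotoxin, and CLDN4 was among the most abundant genes of the set. CLDN4 rose in each of the 5 comparisons of exposed with unexposed cells, which share the untreated libraries of each growth form. In monolayers it was 634, 623 and 679.6 CPM untreated, 788, 795 and 789 after acute exposure and 1069, 985 and 921 after priming, and the groups did not overlap. In aggregates it was 701, 663 and 667 untreated, 804, 851 and 838 primed, 928, 970.4 and 887 treated and 1057, 973 and 931 after both. The changes were 0.29 (SE 0.054, adjusted p = 0.000126), 0.62 (SE 0.055, adjusted p = 5.4e-12), 0.30 (SE 0.054, adjusted p = 0.00013), 0.46 (SE 0.054, adjusted p = 3.78e-08) and 0.54 (SE 0.054, adjusted p = 1.2e-09) in that order of exposed groups. In untreated aggregates against untreated monolayers its change was 0.07 (adjusted p = 0.278). Without the MYH7 libraries the acute change was 0.21 with an adjusted p of 0.251. CLDN3 rose with acute exposure, from 152, 119.8 and 128 to 175, 209.7 and 223 CPM (0.61, SE 0.12, adjusted p = 0.0011), and in untreated aggregates against monolayers, at 221, 196 and 187 (0.60, SE 0.12, adjusted p = 0.000244). Priming of aggregates did not move it up (-0.12, adjusted p = 0.51), and the difference between both responses was -0.73 (SE 0.16, adjusted p = 0.0057). The acute rise of CLDN3 was not called without the MYH7 libraries, at 0.45 with an adjusted p of 0.140.

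CLDN12, an atypical claudin without the usual binding motif for scaffold proteins, was the member of this group that followed growth form. It was 39.4, 40.5 and 43.5 CPM in primed monolayers and 89.4, 88.1 and 81.9 in primed and treated aggregates, with no overlap (1.07, SE 0.066, adjusted p = 3.69e-16). Untreated aggregates, at 77.9, 84.7 and 79.4, were above untreated monolayers, at 57.8, 62.5 and 58.7 (0.43, SE 0.063, adjusted p = 2.76e-07). Primed monolayers lay below untreated ones (-0.54, SE 0.067, adjusted p = 1.41e-08). OCLN, the strand protein occludin, rose in untreated aggregates (0.44, SE 0.081, adjusted p = 1.49e-05), in primed monolayers (0.58, SE 0.082, adjusted p = 1.4e-07) and in primed aggregates (0.29, SE 0.079, adjusted p = 0.00711), and fell with a second dose (-0.43, SE 0.078, adjusted p = 6.98e-05). A pseudogene copy, OCLNP1, has a row of its own in the table, so reads may have been split between the copies. The call in primed aggregates was lost without untreated aggregate replicate 1 (adjusted p = 0.0993) or primed aggregate replicate 3 (0.0571). MARVELD2, the tricellulin of the corners where cells meet, passed in primed aggregates (0.33, SE 0.11, adjusted p = 0.0386). The libraries overlapped, and leaving out untreated aggregate replicate 1 or primed aggregate replicate 2 or 3 ended the call (adjusted p from 0.156 to 0.228). It fell with a second dose (-0.44, SE 0.11, adjusted p = 0.0028). CLDN7 and F11R, the adhesion molecule JAM-A, rose in primed monolayers by 0.38 and 0.37, and both were lower in primed and treated aggregates than in those monolayers.

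Of the scaffolds beneath these proteins, CGN, cingulin, which links the junction to actomyosin and microtubules, moved most. It was 22.8, 17.7 and 21.9 CPM in untreated, 21.4, 20.9 and 19.8 in acutely exposed and 84.0, 81.9 and 80.4 in primed monolayers. The first 2 groups overlapped and the third stood clear of both, with a change of 1.99 (SE 0.075, adjusted p = 9.7e-22) against untreated cells. For acute exposure the adjusted p was 0.997. Untreated aggregates, at 35.8, 36.6 and 36.1, lay between (0.81, SE 0.077, adjusted p = 3.93e-11 against untreated monolayers). Aggregates treated, or primed and treated, were higher still, at 43.1, 43.9 and 45.0 and 51.8, 52.1 and 47.6 (0.28, SE 0.072, adjusted p = 0.00223 and 0.48, SE 0.071, adjusted p = 2.28e-06 against untreated aggregates). Primed aggregates also rose (0.28, SE 0.073, adjusted p = 0.00538), a call lost without primed aggregate replicate 2 (adjusted p = 0.0722) or the MYH7 libraries (0.0557). TJP1, the scaffold ZO-1, was lower in aggregates in both comparisons that share no library. It was 147, 143 and 137 CPM in untreated monolayers and 88.9, 97.7 and 101 in untreated aggregates (-0.57, SE 0.06, adjusted p = 3.65e-10), and 142, 154 and 170.5 and 105, 103 and 107 in the other pair (-0.57, SE 0.06, adjusted p = 3.14e-10). Neither pair overlapped. PATJ, a many-domain scaffold of the Crumbs complex, fell from 219, 205 and 209.7 to 143, 149 and 165 CPM between untreated monolayers and aggregates (-0.47, SE 0.054, adjusted p = 1.76e-09), and rose in treated aggregates (0.26, SE 0.054, adjusted p = 0.000211), though not without the MYH7 libraries (adjusted p = 0.159). TJP3, ZO-3, had the narrowest range of the set, with 71.5, 61.7 and 79.4 CPM in untreated and 65.6, 65.5 and 56.4 in primed monolayers. Its fall in primed monolayers (-0.18, adjusted p = 0.0236) was lost without any of 3 single libraries, at adjusted p from 0.0529 to 0.283.

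The 4 polarity genes did not move together. PARD6B, the PAR6 subunit that joins atypical protein kinase C to CDC42, was 25.6, 24.7 and 23.8 CPM in untreated monolayers and 29.7, 32.4 and 33.03 after acute exposure (0.36, SE 0.079, adjusted p = 0.000852). It was higher in untreated aggregates, at 39.4, 37.3 and 38.7 (0.64, SE 0.079, adjusted p = 1.06e-08), where no library overlapped. Treated aggregates were lower than untreated ones, at 23.4, 25.4 and 28.4 (-0.58, SE 0.078, adjusted p = 3.89e-07), and primed and treated aggregates stood above the treated ones at 30.5, 32.98 and 29.4 (0.27, SE 0.078, adjusted p = 0.0283). This last call was lost without either of 2 libraries of each group, at adjusted p from 0.0592 to 0.189, and the acute one without the MYH7 libraries (0.32, adjusted p = 0.262). Primed aggregates held PARD6B at 42.9, 39.7 and 46.8 CPM, and primed and treated ones were lower than these (-0.48, SE 0.076, adjusted p = 9.69e-06). Primed monolayers held 20.1, 19.7 and 23.0, below untreated ones (-0.24, SE 0.085, adjusted p = 0.0154), a call lost without primed monolayer replicate 1 (adjusted p = 0.0617), replicate 2 (0.0799) or the MYH7 libraries (0.224). PARD3, the PAR3 scaffold, rose in aggregates in both comparisons with no shared library (0.22, SE 0.057, adjusted p = 0.000896 and 0.53, SE 0.057, adjusted p = 4.46e-10) and again with treatment (0.26, SE 0.056, adjusted p = 0.000318). CRB3, the apical membrane protein Crumbs 3, and LLGL2, a basolateral counterpart of the PAR complex, were lower in aggregates in both comparisons. CRB3 changed by -0.32 (SE 0.10, adjusted p = 0.00621) and -0.31 (SE 0.10, adjusted p = 0.00886), and both calls could be lost by 1 library, without untreated aggregate replicate 2 (adjusted p = 0.0915) and without primed monolayer replicate 2 (0.0986). LLGL2 was 178, 180.1 and 208 CPM in untreated monolayers and 158, 143 and 139 in untreated aggregates, without overlap, and its changes were -0.36 (SE 0.062, adjusted p = 3.84e-06) and -0.39 (SE 0.061, adjusted p = 1.1e-06). CRB3 passed in none of the 5 comparisons of exposed with unexposed cells.

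Among adherens junction genes CTNNA1 and CTNNB1, alpha- and beta-catenin, changed by at most 0.27 and 0.15 in any of the 9 comparisons. CTNND1, the p120 catenin that keeps cadherins at the membrane, rose with acute exposure from 40.9, 41.7 and 42.7 to 52.8, 50.4 and 51.6 CPM (0.30, SE 0.076, adjusted p = 0.00335). It rose more in primed aggregates, from 35.5, 38.7 and 38.6 to 51.3, 64.9 and 55.6 (0.61, SE 0.077, adjusted p = 5.5e-07). Neither pair of groups overlapped. In treated aggregates it was 40.6, 41.9 and 34.2, close to untreated ones (0.05, adjusted p = 0.668), and in primed and treated ones 45.3, 45.6 and 40.6, below primed ones (-0.39, SE 0.075, adjusted p = 0.000143). In primed monolayers, at 39.9, 41.7 and 44.3, the change was 0.01 (adjusted p = 0.936). The annotation has a read-through transcript of TMX2 and CTNND1, whose reads could count here. The acute call was lost without the MYH7 libraries (0.31, adjusted p = 0.268), and that in primed aggregates was not.

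Nectins are immunoglobulin-like adhesion molecules that open adherens contacts, and afadin (AFDN) ties them to actin. NECTIN4, the target of the antibody conjugate enfortumab vedotin, rose in aggregates and with exposure. It was 79.4, 83.2 and 88.2 CPM in untreated, 104, 112 and 109 in acutely exposed and 145, 138 and 142 in primed monolayers, without overlap. Untreated aggregates held 131, 127 and 116, primed 163, 179 and 165, treated 158, 167 and 166 and primed and treated aggregates 175, 168 and 162. The 3 exposed aggregate groups overlapped each other and not the untreated one. The changes were 0.58 (SE 0.055, adjusted p = 3.81e-11) for aggregates without antibody, 0.37 (SE 0.055, adjusted p = 3.86e-06) for acute exposure and 0.43 (SE 0.054, adjusted p = 3.92e-07) for primed aggregates. The acute value without the MYH7 libraries was 0.24, with an adjusted p of 0.170. NECTIN1 and NECTIN2, both receptors of herpesviruses, were instead highest in primed monolayers. NECTIN1 was 173, 171 and 163 CPM there, 89.4, 91.7 and 93.5 in untreated monolayers and 76.1, 76.9 and 80.1 in primed and treated aggregates (0.89, SE 0.054, adjusted p = 4.78e-16 and -1.12, SE 0.054, adjusted p = 5.13e-19). NECTIN2 was 172, 157 and 148, 108, 91.5 and 93.1 and 94.2, 87.4 and 92.7 in the same groups (0.71, SE 0.065, adjusted p = 1.8e-11 and -0.80, SE 0.065, adjusted p = 7.38e-13). Treated aggregates without priming held NECTIN1 at 93.8, 96.9 and 94.5, above the primed and treated ones (-0.29, SE 0.054, adjusted p = 0.000437), 1 of 3 genes of the set that priming moved among treated aggregates. Antisense genes overlap NECTIN1 and NECTIN4 in the annotation, and the strand setting of the counting is not given in the sources used here.

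**Figure D4:**
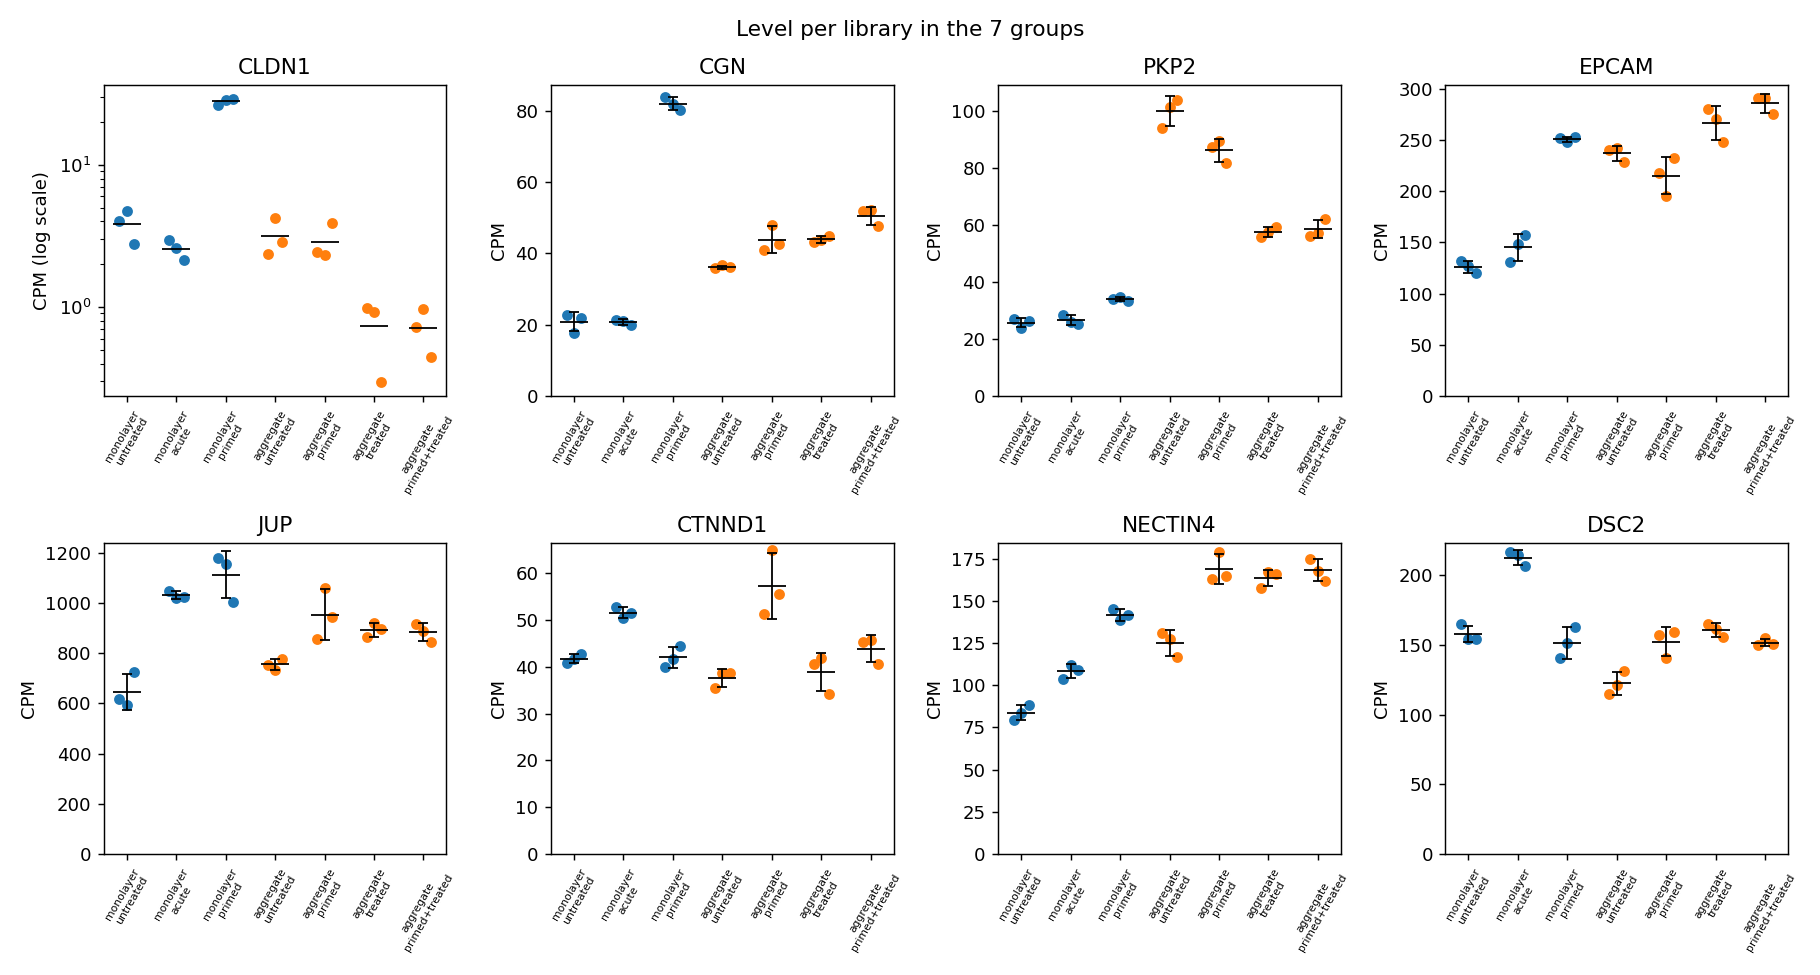
Level of 8 genes in every library (points, blue for monolayers and orange for aggregates, CPM) in the 7 groups, with the group mean as a line and bars of 1 SD (no SD on the log axis of CLDN1). CLDN1 and CGN peak in primed monolayers at means of 27.9 and 82.1 CPM, PKP2 in untreated aggregates at 99.9, and DSC2 in acutely exposed monolayers at 212.

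Desmosome genes rose more often than they fell in the comparisons of exposure. Of 9, 4 rose and 0 fell with acute exposure (11.3% and 8.91% of all genes), and 6 rose and 2 fell in primed aggregates (11.5% and 9.66%), so that the share that fell there, 22.2%, was also above that of all genes. In primed monolayers 8 rose and 0 fell (33.7% and 31.6%) and in treated aggregates 6 rose and 1 fell (18.8% and 17.9%). JUP, plakoglobin, which serves desmosomes and adherens junctions alike, was 619, 592 and 724 CPM in untreated monolayers and 1048, 1022 and 1024 after acute exposure, with no overlap (0.68, SE 0.069, adjusted p = 1.44e-08). This was the largest acute change of the 33. Primed monolayers held 1179, 1154 and 1005 (0.79, SE 0.069, adjusted p = 5.05e-11). In aggregates JUP was 753, 734 and 779 untreated and 857, 1059 and 944 primed (0.34, SE 0.069, adjusted p = 0.000697), a smaller response than the acute one in monolayers by -0.34 (SE 0.098, adjusted p = 0.0168). That difference was lost without untreated monolayer replicate 1 (adjusted p = 0.0526) or replicate 2 (0.0593). DSC2, a desmosomal cadherin, was highest in acutely exposed monolayers, at 217, 214 and 207 against 165, 154 and 154 CPM (0.43, SE 0.056, adjusted p = 4.13e-07), and was back near the untreated level in primed ones, at 140.3, 151 and 163 (-0.06, adjusted p = 0.385). It fell in untreated aggregates, to 115, 121 and 131 (-0.36, SE 0.057, adjusted p = 1.11e-06), and rose there with priming, to 157, 140.4 and 159 (0.32, SE 0.058, adjusted p = 0.000122). Without the MYH7 libraries the last 2 changes were -0.23 (adjusted p = 0.0578) and 0.21 (0.0823). DSG2, the other desmosomal cadherin of the set, did not pass with acute exposure (-0.06, adjusted p = 0.54) and rose in primed aggregates (0.31, SE 0.056, adjusted p = 8.51e-05), a difference of 0.37 (SE 0.079, adjusted p = 0.00129). It was also the second gene higher in primed and treated than in treated aggregates, at 151, 162 and 151 against 143, 138 and 132 CPM (0.17, adjusted p = 0.0447), a call lost without any 1 of the 6 libraries (adjusted p from 0.0533 to 0.252). Its rise with priming had an adjusted p of 0.0525 without the MYH7 libraries.

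PKP2, a plakophilin that binds desmoplakin, marked the aggregates. It was 26.8, 23.9 and 26.2 CPM in untreated, 28.5, 26.0 and 25.3 in acutely exposed and 33.8, 34.7 and 33.2 in primed monolayers. Untreated aggregates held 94.0, 102 and 104, 1.97 (SE 0.064, adjusted p = 1.55e-23) against untreated monolayers, the largest difference between growth forms in that comparison. No aggregate library overlapped a monolayer. PKP2 was lower than in untreated aggregates in treated ones, at 55.9, 57.3 and 59.2 (-0.80, SE 0.06, adjusted p = 1.28e-12), and in primed and treated ones, at 56.0, 57.3 and 62.1 (-0.77, SE 0.059, adjusted p = 3.31e-12). The latter were still above primed monolayers (0.79, SE 0.065, adjusted p = 8.4e-13). Primed aggregates, at 87.4, 89.3 and 81.8, were slightly below untreated ones (-0.21, SE 0.059, adjusted p = 0.00819), a call lost without primed aggregate replicate 3 (adjusted p = 0.0564). DSP, desmoplakin, the link to keratin filaments, rose with PKP2 in untreated aggregates, from 292, 290.3 and 283 to 421, 454 and 489.6 CPM (0.66, SE 0.056, adjusted p = 2.23e-12), and in primed and treated aggregates against primed monolayers (0.37, SE 0.056, adjusted p = 4.02e-07). PKP3, a second plakophilin, took another course. It was 189.7, 168 and 184 CPM in untreated, 215, 245 and 265 in acutely exposed and 408, 374 and 333 in primed monolayers (0.42, SE 0.088, adjusted p = 0.00148 and 1.04, SE 0.088, adjusted p = 1.37e-09). The acute rise was not called without the MYH7 libraries (0.22, adjusted p = 0.325). In aggregates it was 284, 260.2 and 226 untreated and 204, 189 and 217 primed (-0.34, SE 0.088, adjusted p = 0.00915), the only gene of the set called in opposite directions in these 2 comparisons, and the difference was -0.76 (SE 0.12, adjusted p = 0.000264). Primed and treated aggregates held PKP3 at 258, 245 and 237 CPM, above primed ones (0.28, SE 0.087, adjusted p = 0.0199), a call lost without primed aggregate replicate 1 or 2 or primed and treated aggregate replicate 1 (adjusted p from 0.0523 to 0.0994). The fall in primed aggregates was lost without untreated aggregate replicate 1 (adjusted p = 0.0514), primed aggregate replicate 2 (0.0512) or the MYH7 libraries (0.308), and the difference only without the last (-0.37, adjusted p = 0.214).

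EVPL and PPL, the plakins envoplakin and periplakin, which also build the cornified envelope of skin, rose in primed monolayers and in treated aggregates. EVPL went from 63.2, 56.8 and 64.7 to 153, 147 and 126 CPM in primed monolayers (1.21, SE 0.066, adjusted p = 2.95e-17) and from 61.7, 56.6 and 61.1 to 92.1, 93.8 and 98.8 in treated aggregates (0.67, SE 0.067, adjusted p = 1.08e-09). PPL was 157, 137 and 152 CPM in untreated, 209, 196 and 197 in acutely exposed (0.44, SE 0.053, adjusted p = 1.09e-07) and 286, 273 and 265 in primed monolayers (0.89, SE 0.053, adjusted p = 3.34e-16). No libraries overlapped in any of these pairs. EVPL was 74.0, 78.2 and 69.5 CPM in primed and 97.0, 85.5 and 89.0 in primed and treated aggregates, a rise with the second dose (0.29, SE 0.066, adjusted p = 0.0008) and against untreated aggregates (0.60, SE 0.067, adjusted p = 1.12e-08). The epidermal markers given for CLDN1 stood high in primed monolayers with EVPL and PPL. In aggregates they summed to 36.8 to 37.7 CPM treated and 41.3 to 43.4 untreated, with 2 of 7 called higher with treatment, KRT13 and KRT14, and 0 lower. KRT13 and KRT14 had low means, 0.429 and 0.0564 CPM untreated and 0.949 and 0.614 treated, and this comparison crosses the 2 sets of libraries. The part of the epidermal markers in the rise of EVPL and PPL was not tested. PERP, a desmosomal membrane protein induced by p53 family factors, rose in aggregates with priming and with treatment, from 140.3, 148 and 161 CPM to 190.2, 181 and 187 (0.31, SE 0.052, adjusted p = 3.65e-05) and 231, 213 and 209 (0.54, SE 0.052, adjusted p = 4.42e-10). The first call was lost without the MYH7 libraries (adjusted p = 0.0531). After both exposures PERP was 209.8, 211 and 218 CPM (0.51, SE 0.052, adjusted p = 1.84e-09).

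EPCAM, an adhesion molecule of carcinoma cells that binds and stabilises CLDN7, was lowest in untreated monolayers at 132, 127 and 120.1 CPM. Untreated aggregates held 240.3, 243 and 229 (0.91, SE 0.062, adjusted p = 5.69e-15) and primed monolayers 252, 248 and 253 (0.99, SE 0.062, adjusted p = 7.8e-16). Neither overlapped the untreated monolayers. Among aggregates, primed ones held 218, 196 and 232 and primed and treated ones 292, 291 and 276, a rise with the second dose (0.41, SE 0.06, adjusted p = 2.85e-06). The acute change was 0.20 (SE 0.062, adjusted p = 0.0156), with overlapping libraries, and was lost without any of 3 single libraries, at adjusted p from 0.0647 to 0.174.

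The comparison of growth forms could be made in 2 ways with no library in common, without antibody within the set of 12 libraries and in exposed cells within the set of 9. The second differs also in a second dose of antibody, given to the aggregates alone. Matrigel at 5% was likewise added to the aggregates alone in either comparison, and the listed hours of culture differ too. Growth form cannot be told apart from these. In both, 9 genes were higher in aggregates, CLDN12, CTNNB1, DSG2, DSP, EPCAM, NECTIN4, PARD3, PARD6B and PKP2, and 5 were lower, CRB3, LLGL2, NECTIN1, NECTIN2 and TJP1. The 9 are 60% of the genes higher in the first and 90% of those higher in the second, where over all tested genes the shares were 51.9% and 53.6%. The 5 lower genes are 55.6% and 35.7% of those lower in the first and in the second, beside 53.4% and 51.9% of all genes. A further 5, CGN, JUP, OCLN, PKP3 and PPL, were higher in aggregates without antibody and lower in the exposed pair, 33.3% and 35.7% of the genes called so, beside 20.5% and 21% of all. CGN changed by 0.81 and -0.70, PKP3 by 0.51 and -0.59, OCLN by 0.44 and -0.28, JUP by 0.23 and -0.33 and PPL by 0.22 and -0.21. All 5 also rose in primed against untreated monolayers, and the primed libraries are the reference of the second comparison. CTNNB1 was called in the first only with untreated monolayer replicate 3 (adjusted p = 0.0775 without it), and JUP (0.486), NECTIN1 (0.103) and NECTIN2 (0.196) were not called there without the MYH7 libraries. The difference between the 2 comparisons was not tested.

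**Figure D5:**
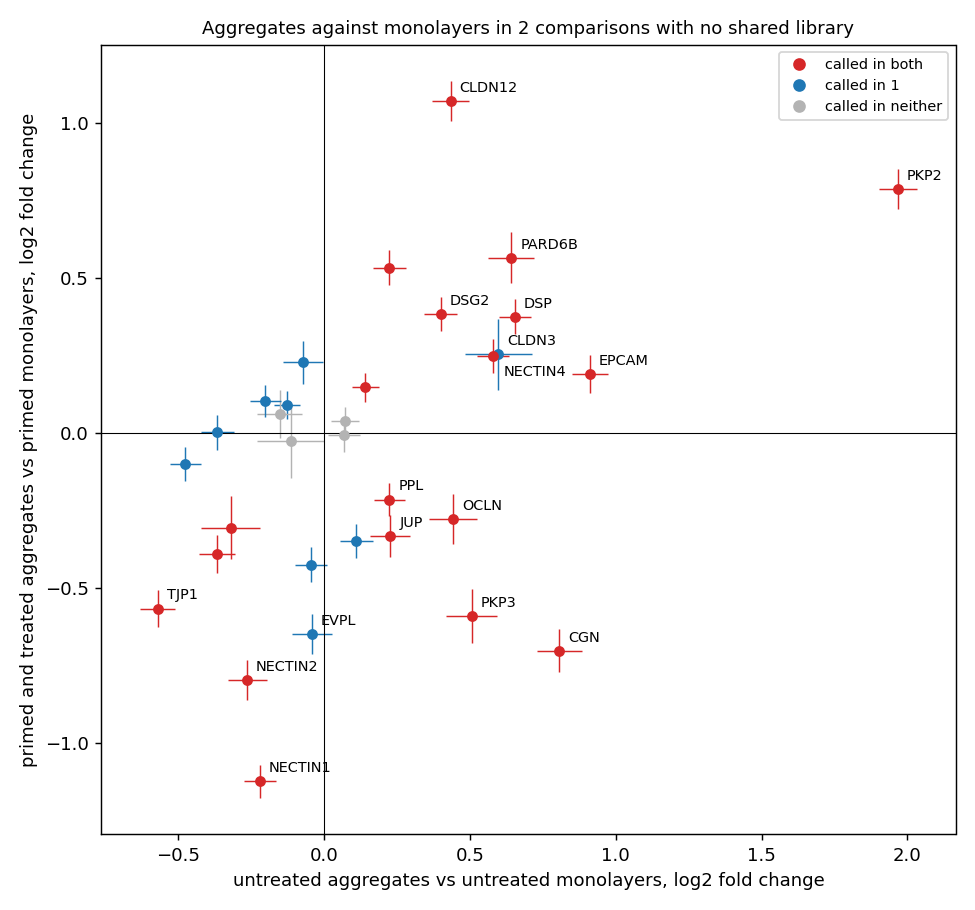
Log2 fold change of aggregates against monolayers without antibody (x) and of primed and treated aggregates against primed monolayers (y) for 32 genes, with bars of 1 SE and colours for the number of comparisons with a call. CLDN1, at -0.28 and -5.31, lies outside the axes; PKP2, at 1.97 and 0.79, and CLDN12, at 0.43 and 1.07, stand at the upper right, and CGN, at 0.81 and -0.70, at the lower right.

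Whether priming acted alike in treated and untreated aggregates was tested as a difference between responses. For 9 genes the response to priming was smaller, or more negative, in treated aggregates. CTNND1 had 0.61 in untreated and 0.17 in treated aggregates, a difference of -0.44 (SE 0.11, adjusted p = 0.00577). DSC2 had 0.32 and -0.08 (-0.40, SE 0.08, adjusted p = 0.000729), and NECTIN4 had 0.43 and 0.04 (-0.39, SE 0.076, adjusted p = 0.000417). The others were EVPL, F11R, JUP, PERP, PPL and TJP1, at -0.37, -0.29, -0.35, -0.35, -0.25 and -0.30. Leaving out 1 library ended the call of JUP (without primed aggregate replicate 2, adjusted p = 0.0713), of TJP1 (any of 3 libraries, 0.0528 to 0.0706) and of PPL (any of 5, 0.0560 to 0.0748). PKP3 was the 1 gene with a difference above 0 (0.39, SE 0.12, adjusted p = 0.0442), a call lost without any of 8 of the 12 libraries, at adjusted p from 0.0713 to 0.109. In 8 of the 9 priming alone gave a rise that was called, TJP1 being the exception (0.15, adjusted p = 0.0711), and in 0 of the 9 was there a call for priming among treated aggregates. NECTIN4 was the only 1 of the 9 still called without the MYH7 libraries. The melanocyte markers moved with priming as well, from a sum of 16.7 to 23.3 CPM in untreated to 54.4 to 93.2 in primed aggregates, and their part in these differences was not tested.

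Other genes of the same structures gave mixed counts. Of 19 further tight junction and claudin genes tested, 9 rose and 5 fell in untreated aggregates against monolayers (47.4% and 26.3%, beside 32.9% and 31.1% of all genes). With acute exposure 5 rose and 2 fell (26.3% and 10.53%, beside 11.3% and 8.91%), and in primed aggregates 5 rose and 0 fell (26.3%, beside 11.5%). In primed monolayers 6 rose and 4 fell, 31.6% and 21.1%, no more than the 33.7% and 31.6% of all genes. CLDN8 rose from a mean of 0.188 to 1.68 CPM in untreated aggregates (3.04, SE 0.43, adjusted p = 1.87e-07), with 13 reads in all 3 untreated monolayers. CLDN9 rose from a mean of 1.80 to 6.20 CPM there (1.81, SE 0.20, adjusted p = 1.23e-09). CGNL1, the paralog of cingulin, rose from a mean of 28.0 to 63.8 CPM there and to 48.8 with acute exposure (1.18, SE 0.075, adjusted p = 1.11e-15 and 0.79, SE 0.075, adjusted p = 4.82e-10). Of 15 further polarity genes 4 rose and 5 fell in untreated aggregates against monolayers, 4 rose and 1 fell with acute exposure, 1 rose and 2 fell in primed aggregates and 3 rose and 3 fell in treated ones. In primed monolayers 8 rose and 2 fell (53.3% and 13.3%, beside 33.7% and 31.6% of all genes), led by SCRIB, the Scribble scaffold of the lateral membrane, from a mean of 97.5 to 268 CPM (1.46, SE 0.061, adjusted p = 1.49e-20). Of 9 further adherens junction genes 5 rose and 2 fell there, 0 rose and 1 fell with acute exposure, and 2 rose and 2 fell in untreated aggregates. CDH1, E-cadherin, the classical cadherin of epithelial adherens junctions, was close to absent, at 0.562 to 3.05 CPM in the 12 libraries and 0.0449 to 0.642 in the 9. Of its partner catenins, CTNNA1 was among the most abundant genes of the set, with a mean of 1195 CPM in untreated monolayers. CTNNB1 and CTNND1 were lower, with means of 192 and 41.8 CPM there. CDH3, DSG1, DSG3, DSC3 and PKP1, junction genes of basal and squamous epithelium, were not analysed here.

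Of 13 transcription factors of junction genes tested, 6 rose and 0 fell with acute exposure (46.2%, beside 11.3% of all genes) and 5 rose and 0 fell in primed aggregates (38.5%, beside 11.5%). In primed monolayers 8 rose and 4 fell, in treated aggregates 6 rose and 2 fell, and in untreated aggregates against monolayers 5 rose and 5 fell. ELF3, an epithelial ETS factor, rose from a mean of 258 CPM to 462 with acute exposure (0.84, SE 0.053, adjusted p = 2.6e-14) and to 652 in untreated aggregates (1.34, SE 0.053, adjusted p = 3.32e-21). GRHL3, a Grainyhead-like activator of barrier genes, was 6.84 CPM in untreated and 14.8 in primed monolayers (1.12, SE 0.17, adjusted p = 8.39e-07) and no more than 1.85 in the mean of any aggregate group. The repressors SNAI1, SNAI2, ZEB1 and ZEB2 had group means of at most 1.84 CPM.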

How the data were processed

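RNA of the 21 AU565 samples was isolated in TRIzol and sequenced from TruSeq libraries, per the labels. The authors deposited 1 table of raw counts for 16553 genes, listed by Entrez identifier (174 without a symbol). The submitters' processing notes name featureCounts, hg38 and limma. Versions, aligner, annotation and strand setting are not given in the sources used here. Titles matched the columns to samples, except that the column names of the primed aggregates add the word primed, and these were matched through the treatment label.

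Counts were tested with edgeR 4.0.16 (R 4.3.3) after TMM normalization and filterByExpr by group. A single fit with 7 group means had 14 residual degrees of freedom, with robust quasi-likelihood dispersions, two-sided tests and Benjamini-Hochberg adjustment over 15969 genes. The 584 genes left out by the filter held 0.0116% of the counts. The SE is the fold change divided by the root of the F statistic. Levels are CPM on TMM-scaled library sizes, and levels per kilobase use the exon union of GENCODE annotation. Totals were 15005070 to 26921113 counts per library. The variance between replicate pairs was 2.40 to 10.7 times that of counting, and the fit gave a biological coefficient of variation of 5.98%. The steps were checked on simulated counts.

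The genes and lists were chosen with earlier results of these data known. Values per library are given for the called genes with the largest absolute changes, up to 3 each way per comparison and at 1 CPM or more in a group, and for other members that the text compares. Of the other genes of each list, called ones with large changes are named as examples, and CDH1 always. Alternatives were DESeq2 1.42.0, limma voom 3.58.1, RLE size factors, no filter, fits restricted to the groups compared, a block for the replicate number and each library left out. Leaving out the 6 libraries with MYH7 was added after the data were seen. A further gene list is not reported here.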

Additional observations from a re-analysis of the deposited data

Results flagged for a closer look

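For 10 of the 33 genes the response to priming differed between treated and untreated aggregates, by edgeR's test of the difference between both responses. The differences (log2) were -0.435 for CTNND1, -0.399 for DSC2, -0.394 for NECTIN4, -0.374 for EVPL, -0.352 for JUP, -0.345 for PERP, -0.297 for TJP1, -0.290 for F11R, -0.250 for PPL and 0.387 for PKP3. Some single library left out ended the call of 4 of these, JUP, PKP3, PPL and TJP1, and the replicate block also ended that of PKP3. The calls of CTNND1, DSC2, EVPL, F11R and PERP were each lost under at least 1 other alternative, and that of NECTIN4 under none. Treated aggregates belong to the 9 libraries with kidney transcripts and untreated and primed aggregates to the 12 with melanocyte transcripts, so that each response was measured within 1 set. Within the 12, however, untreated aggregate replicates 1 and 2 held MYH7 at 29.9 and 20.6 CPM, and primed aggregates at most 0.0592.

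For 8 genes the response of aggregates to priming differed from that of monolayers to acute exposure, by the same kind of test. The differences were -0.756 for PKP3, -0.734 for CLDN3, -0.343 for EPCAM, -0.341 for JUP, -0.308 for NECTIN2, -0.268 for PKP2, 0.231 for PERP and 0.369 for DSG2. Some single library left out ended the call of 4 of these, JUP, NECTIN2, PERP and PKP2. The calls of CLDN3, DSG2, EPCAM and PKP3 were each lost under at least 1 other alternative. The primed aggregates were 96 h past their exposure and the monolayers were sampled at its end, so growth form and time since exposure cannot be told apart.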

How the results depend on the processing

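The counts of called genes were recomputed under each alternative, and 0 called results changed direction. Of 363 gene results, DESeq2 ended 2 calls and added 9, RLE size factors ended 2, limma voom ended 3 and added 6, no filter ended 1 and added 2, and fits of only the groups compared ended 5 and added 11. With the replicate block 2 calls were lost, of LLGL2 in treated aggregates (adjusted p = 0.0522) and of PKP3 in the difference between priming responses (0.38, adjusted p = 0.0560), and the count above 0 in that difference went from 1 to 0. Same-numbered libraries deviated together in few cases (correlation of deviations from group means -0.148 to 0.184, over 0.1 in 2 of 63 pairs), so the numbers were not taken as pairs, and the replicate block changed no other count by over 1.5 times. That count above 0 was 3 with no filter and 2 with limma voom. Fits of only the groups compared gave 1 gene lower with acute exposure, 4 higher and 3 lower with priming among treated aggregates, and 1 above 0 in the difference between aggregates and monolayers. RLE size factors gave 1 gene higher with priming among treated aggregates.

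Leaving out 1 library gave 0 to 1 genes lower with acute exposure, 1 to 2 lower in primed aggregates, and 0 to 2 higher and 1 to 2 lower with priming among treated aggregates. It gave 0 to 2 above 0 in the difference between priming responses, and 1 to 5 above and 3 to 7 below 0 in that between aggregates and monolayers. Without the 6 MYH7 libraries, 3 genes were lower in untreated aggregates than in monolayers, 4 were higher with acute exposure, and 5 were higher and 1 lower in primed aggregates. The difference between priming responses was then above 0 for 0 genes and below 0 for 1, and that between aggregates and monolayers for 0 and 0. Fewer libraries remain in that fit, 1 in each of 3 groups. Calls that passed under every alternative were 16 of 24 for untreated aggregates against monolayers, 4 of 13 for acute exposure, 4 of 17 for primed aggregates, 21 of 25 for primed monolayers and 22 of 24 for primed and treated aggregates against primed monolayers. Some single library left out ended the call of 2 of 3 genes for priming among treated aggregates. It did so for 4 of 10 genes in the difference between priming responses and for 4 of 8 in that between aggregates and monolayers. Calls that passed under every alternative, the fit without the MYH7 libraries among them, were 1 of 3, 1 of 10 and 0 of 8 there. CLDN1 had as few as 7 reads in a library, so that small changes among treated aggregates were not detectable at this depth.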
